A study of Bos taurus with 15 samples.

Results

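The glucocorticoid receptor, the chaperones that hold it ready to bind hormone and the enzymes that make or remove active glucocorticoid inside a cell form a set of 10 genes, which was followed here in bovine testis. Members were found by gene symbol, gene number, accession or description of the array's probes. Of the 10 genes, 9 had a probe, with 10 probes among the 21475 of the array, and no probe was matched to H6PD, which is not analysed here. Expression in 8 cattle that received oral prednisolone (30 mg per head, daily over 35 days) was compared with that in 7 untreated control cattle. Total RNA of testis collected at the slaughterhouse was hybridised to single-colour Agilent oligonucleotide arrays, with 1 animal per array. The labels give no age or breed, the design text speaks of cows although the tissue is testis, and animals are named here by their group and number.

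Glucocorticoids such as cortisol and its synthetic relative prednisolone act through the glucocorticoid receptor, a transcription factor that waits in the cytoplasm in a complex with HSP90, the co-chaperone p23 and an immunophilin of the FKBP family. Hormone binding sends the complex to the nucleus, where the receptor switches genes on or off, FKBP5 being one of the genes it commonly induces and also a brake on the receptor's own hormone binding. Inside cells the 11β-hydroxysteroid dehydrogenases set how much active steroid reaches the receptor, and in the testis the Leydig cells, which make testosterone, are known to carry both the receptor and these enzymes.

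A level is the log2 processed signal of a probe relative to the 75th percentile of its array, so 0 is that percentile and 1 unit is a doubling. Levels of different probes cannot be set against each other. The share of probes well above background was 36.4% on the dim array of prednisolone 30 and 82.2% to 89.9% on the other 14, and the 75th percentile of signal was 49.8 on it and 1220 to 2780 elsewhere. On it 5 of the 9 members were not well above background, against 8 of 9 members above background on every other array, so group differences are given with and without this animal. The file of this animal also disagreed with the authors' deposited table. After centring each gene, the correlation between scanner file and table column was 0.0134 for prednisolone 30 and 0.702 to 0.951 for the other arrays. With the centring taken from the other 14 arrays over brighter probes, an alternative chosen after the first values were seen, these were 0.0367 and 0.931 to 0.974. The markers of Leydig, Sertoli, peritubular and endothelial cells, macrophages, spermatocytes and spermatids that had a probe were above background on all of the 14 arrays. The erythroid gene ALAS2 and the adipocyte gene ADIPOQ were above background on none. The other 2 blood markers, HBB and HBA, and the other 2 adipocyte markers, FABP4 and PLIN1, were above background on all 14.

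No member passed the test between prednisolone and control testis. Of the 8 members that could be tested, 0 had an adjusted p under 0.05 (limma, Benjamini-Hochberg over all 17411 tested probes), where 0 probes, or 0%, passed on the whole array. At an unadjusted p under 0.05 the members again numbered 0, beside 468 probes, or 2.69%, over the array. Levels were higher with prednisolone for 3 members and lower for 5, with a median difference of -0.13, while 49.9% of the 12820 tested genes were higher and their median was -0.0006. Without prednisolone 30 the members split into 4 higher and 4 lower around a median of -0.0017, with 0 members and 4.55% of probes at an unadjusted p under 0.05. Without control 17 as well these were 0 members and 5.21% of probes, and in the authors' deposited table the count was again 0, beside 5.85% of probes. Over 35 settings a member reached an unadjusted p under 0.05 in 2. With array weights HSP90AB1 had an unadjusted p of 0.0434, where 6.81% of probes did so and 0.00574% passed the adjusted threshold. Within scan day 1 without prednisolone 30 and control 17, an alternative chosen after the data were seen, 5 prednisolone and 2 control arrays remained. There NR3C1 differed by 0.74, with an unadjusted p of 0.00202 (adjusted p = 0.394, limma), where 8.91% of probes were under 0.05. Those 2 controls, 18 and 23, had the lowest NR3C1 levels of the 7, at -1.88 and -1.68. Prednisolone and control groups overlapped for every member with and without prednisolone 30, where 0.0517% and 0.0862% of tested probes had groups that did not overlap. As bulk tissue was measured, fewer cells of a type and less RNA per cell cannot be told apart in any of these values.

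**Figure D1:**
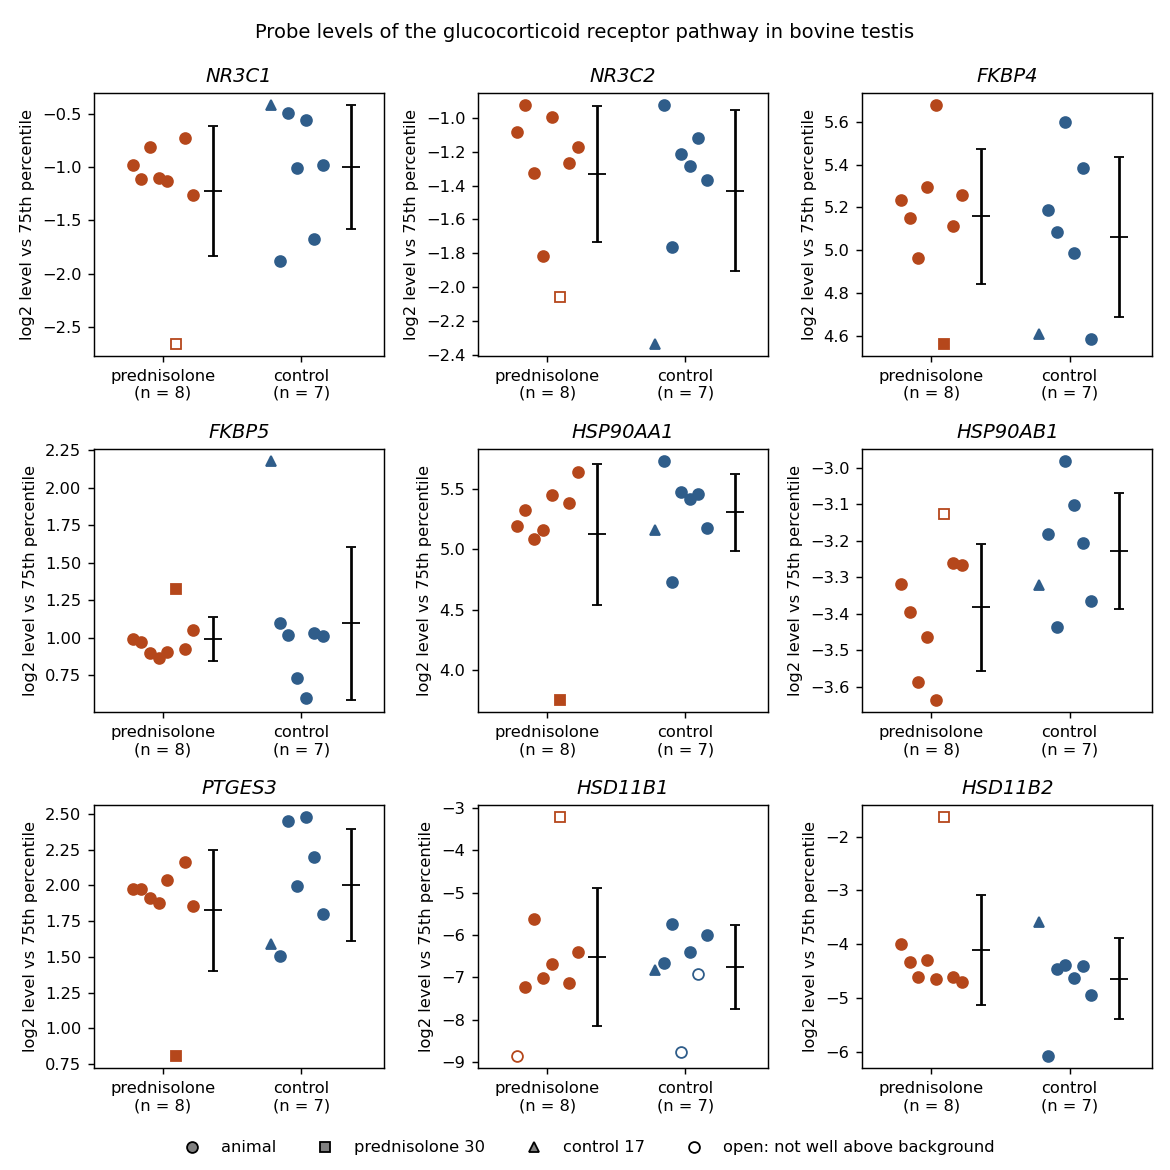
Log2 level of each member's main probe relative to the array's 75th percentile (y axis) in each prednisolone animal (left) and control animal (right); bars give mean and SD, the square is prednisolone 30, the triangle is control 17 and open symbols were not well above background. The groups overlap in every panel, and FKBP5 in control 17 stands at 2.18 above all other animals.

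NR3C1 encodes the glucocorticoid receptor itself, read through probe A_73_118430. Its level was -2.66 at the lowest, -1.11 at the median and -0.73 at the highest in the 8 prednisolone animals, against -1.88, -0.99 and -0.42 in the 7 controls. The lowest treated value was that of prednisolone 30, where the probe was not well above background. The other treated animals lay within the range of the controls. The mean was -1.23 ± 0.60 with prednisolone (SD, n = 8) and -1.005 ± 0.58 in controls (SD, n = 7). The limma difference was -0.22, with a 95% interval of -0.83 to 0.39 and an adjusted p of 0.888. Without prednisolone 30 it was -0.02, with an interval of -0.47 to 0.44 on the log2 scale, or 0.723-fold to 1.35-fold.

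NR3C2 encodes the mineralocorticoid receptor, which also binds cortisol with high affinity. Its brighter probe, A_73_104916, gave -2.05, -1.22 and -0.93 as lowest, median and highest levels with prednisolone, against -2.33, -1.29 and -0.92 in controls. The groups covered nearly the same range over all arrays, the lowest control being control 17. The lowest treated value was that of prednisolone 30, where the probe was not well above background. Prednisolone minus control was 0.10, with a 95% interval of -0.37 to 0.57 and an adjusted p of 0.924 by limma, and it was 0.20 without prednisolone 30. A second probe, A_73_103865, was well above background on 0 of 8 prednisolone arrays and 1 of 7 control arrays, that of control 17, and did not pass the filter for the test. It lay at -9.23, -8.39 and 0.10 (lowest, median, highest) with prednisolone, against -9.12, -8.31 and -7.15 in controls, the one high value being prednisolone 30. With the filter lifted its difference was 0.73 (adjusted p = 0.916, limma), and -0.36 without prednisolone 30 (adjusted p = 0.893).

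FKBP4, or FKBP52, is the immunophilin that couples the receptor complex to transport toward the nucleus. Its level lay at 4.56, 5.19 and 5.68 (lowest, median, highest) with prednisolone and at 4.58, 5.09 and 5.60 in controls. It was a bright probe on every array, and the difference of 0.10 had a 95% interval of -0.30 to 0.49 (adjusted p = 0.913, limma), and it was 0.18 without prednisolone 30. FKBP5, or FKBP51, lay at 0.86, 0.95 and 1.32 with prednisolone, against 0.60, 1.02 and 2.18 in controls. The treated animals were tightly grouped, and control 17 alone stood far above the others of its group, which reached 1.097. Prednisolone minus control was -0.10, with an interval of -0.52 to 0.31 and an adjusted p of 0.910 by limma. Without prednisolone 30 it was -0.15 and without control 17 as well it was 0.03, with an interval of -0.19 to 0.25.

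HSP90AA1 and HSP90AB1 encode the stress-inducible and the constitutive cytosolic forms of HSP90, the chaperone that holds the receptor in its hormone-binding shape. HSP90AA1 lay at 3.75, 5.26 and 5.64 (lowest, median, highest) with prednisolone, against 4.73, 5.42 and 5.73 in controls. The one low treated value was again prednisolone 30, without which the difference moved to 0.01 (95% interval -0.30 to 0.32), against -0.18 over all arrays (adjusted p = 0.888, limma). HSP90AB1 lay at -3.64, -3.36 and -3.13 with prednisolone, against -3.44, -3.21 and -2.98 in controls. Its highest treated value was that of prednisolone 30, where the probe was not well above background. The difference of -0.15 (95% interval -0.42 to 0.11) did not pass the test, with an adjusted p of 0.885 by limma. Without prednisolone 30 it was -0.19, with an unadjusted p of 0.0967 and an adjusted p of 0.964.

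PTGES3 encodes p23, the co-chaperone that stabilises the mature complex of HSP90 and receptor. Its level lay at 0.80, 1.94 and 2.16 (lowest, median, highest) with prednisolone, against 1.503, 1.998 and 2.48 in controls. Apart from prednisolone 30, the treated animals sat in a narrow band inside the control range. Prednisolone minus control was -0.18, with a 95% interval of -0.63 to 0.27 and an adjusted p of 0.885 by limma, and it was -0.03 without prednisolone 30.

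HSD11B2 inactivates cortisol to cortisone, and it also acts on prednisolone. Its level lay at -4.71, -4.48 and -1.64 (lowest, median, highest) with prednisolone, against -6.09, -4.46 and -3.58 in controls. The highest treated value was that of prednisolone 30, where the probe was not well above background, and control 18 was the lowest control. Prednisolone minus control was 0.53, with a 95% interval of -0.38 to 1.45 and an adjusted p of 0.885 by limma, and without prednisolone 30 it was 0.18, with an interval of -0.39 to 0.76. HSD11B1 mainly runs the reaction the other way and regenerates active steroid. The probe cleared background on 6 of 8 prednisolone arrays and 5 of 7 control arrays, too few for the filter of the test. Its processed signal was 4.28 to 56.7 in the other 7 treated animals and 2.80 to 31.8 in controls, near the background of the arrays. On the log2 scale its level averaged -6.52 ± 1.62 with prednisolone (SD, n = 8) and -6.76 ± 0.98 in controls (SD, n = 7). Without prednisolone 30, where the probe was not well above background, the treated mean was -6.99 ± 0.99 (SD, n = 7). With the filter lifted the difference was 0.24 over all arrays (adjusted p = 0.932, limma) and turned to -0.24 without prednisolone 30 (adjusted p = 0.971).

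**Figure D2:**
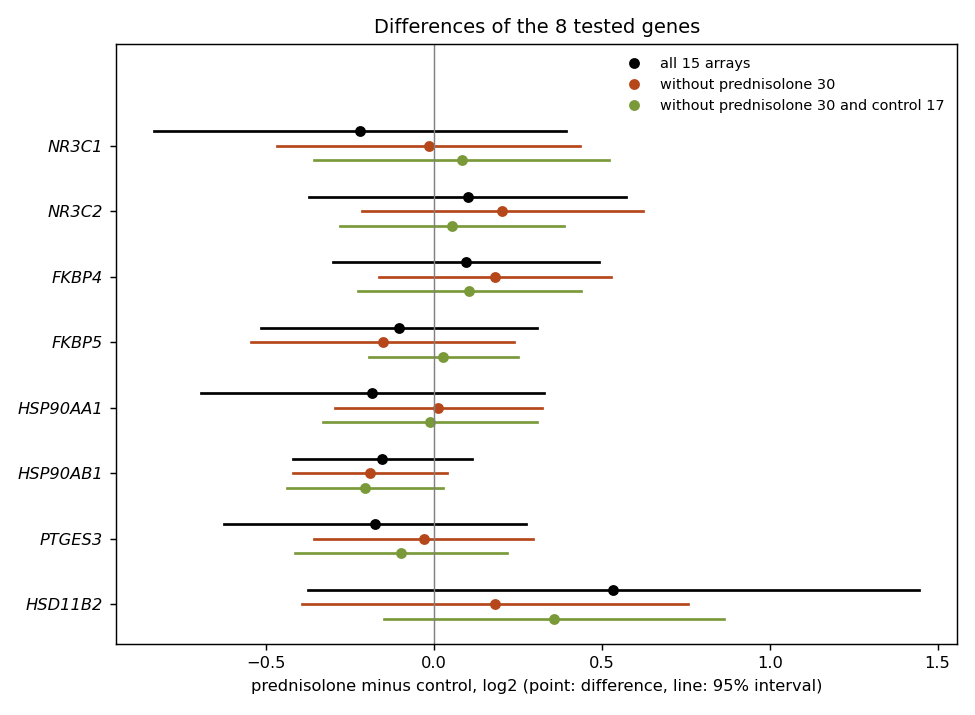
Difference in log2 level, prednisolone minus control (x axis), of the 8 tested members with 95% intervals from limma, over all 15 arrays, without prednisolone 30, and without prednisolone 30 and control 17. Every interval spans 0.

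In differences between paired members within each array, a constant shift of that array cancels, although quantile normalization still moved them. HSD11B1 minus HSD11B2 averaged -2.41 ± 1.18 with prednisolone (SD, n = 8) and -2.11 ± 1.35 in controls (SD, n = 7). The difference between group means was -0.30, or -0.42 without prednisolone 30. The HSD11B1 probe was not well above background on 2 prednisolone and 2 control arrays, and these held the lowest pair value of each group, -4.87 in prednisolone 25 and -4.38 in control 21. FKBP5 minus FKBP4 averaged -4.17 ± 0.44 with prednisolone and -3.97 ± 0.78 in controls, a difference between groups of -0.20, which was -0.33 without prednisolone 30 and -0.08 without control 17 as well. HSP90AA1 minus HSP90AB1 averaged 8.504 ± 0.68 with prednisolone and 8.53 ± 0.23 in controls. Without prednisolone 30 the treated mean was 8.74 ± 0.19 (SD, n = 7), which lay 0.20 above controls, against -0.03 over all arrays and 0.18 with quantile normalization. NR3C1 minus NR3C2 averaged 0.10 ± 0.45 with prednisolone and 0.43 ± 0.996 in controls, a difference of -0.32, or -0.22 without prednisolone 30. None of these group differences exceeded the larger of the 2 SDs, and they were not tested.

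The members varied less between treated animals than between controls once prednisolone 30 was left out. This was seen in the values first, so it is described and not tested. For NR3C1 the SD was 0.19 in 7 prednisolone animals and 0.58 in 7 controls. For FKBP5 it was 0.063 with prednisolone and 0.51 in controls, or 0.20 in controls without control 17. For PTGES3 it was 0.10 with prednisolone and 0.39 in controls. The SD was smaller with prednisolone for 8 of 8 members, but also for 71.0% of all tested genes, with a median ratio of prednisolone to control SD of 0.467 for members and 0.778 for all genes. Without control 17 as well, the SD was smaller for 7 of 8 members and 53.7% of all genes, and the median ratios were 0.477 and 0.956. With prednisolone 30 included the SD was smaller for 3 of 8 members and 29.8% of all genes. In the authors' deposited table, whose column for prednisolone 30 differs from the scanner file, it was smaller for 7 of 8 members and 71.0% of all genes over all 15 columns. Without control 17 these were 6 of 8 and 56.4%.

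**Figure D3:**
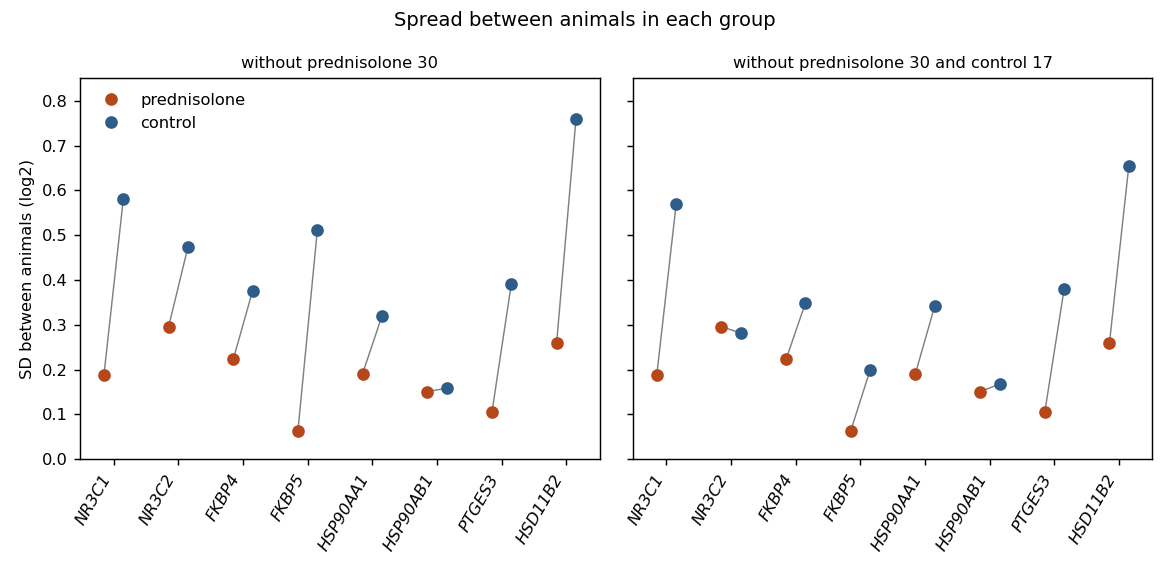
SD between animals of the log2 level (y axis) of each tested member in prednisolone animals (left point) and controls (right point), without prednisolone 30 (left panel) and also without control 17 (right panel). HSP90AB1 differs least between the groups in the left panel, and NR3C2 has the larger SD in prednisolone animals once control 17 is left out.

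Slides were not balanced over the groups. Slides 1 and 2 held both groups and the other 5 held 1 group each, and scan day 1 held 6 prednisolone and 3 control arrays. Controls that shared a slide were close in NR3C1 on slide 5, at -1.01 and -0.99, and on slide 6, at -0.50 and -0.56, while those of slide 1 lay at -0.42 and -1.88. Within scan day 1 the NR3C1 difference was 0.01, and without prednisolone 30 it was 0.28. Within scan day 1 without prednisolone 30, the SD of NR3C1 was 0.20 in 5 prednisolone animals and 0.79 in 3 controls, control 17 among them. There the SD was smaller with prednisolone for 7 of 8 members and 78.1% of all genes. The part of slide and scan day in the spread of controls was not tested.

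**Figure D4:**
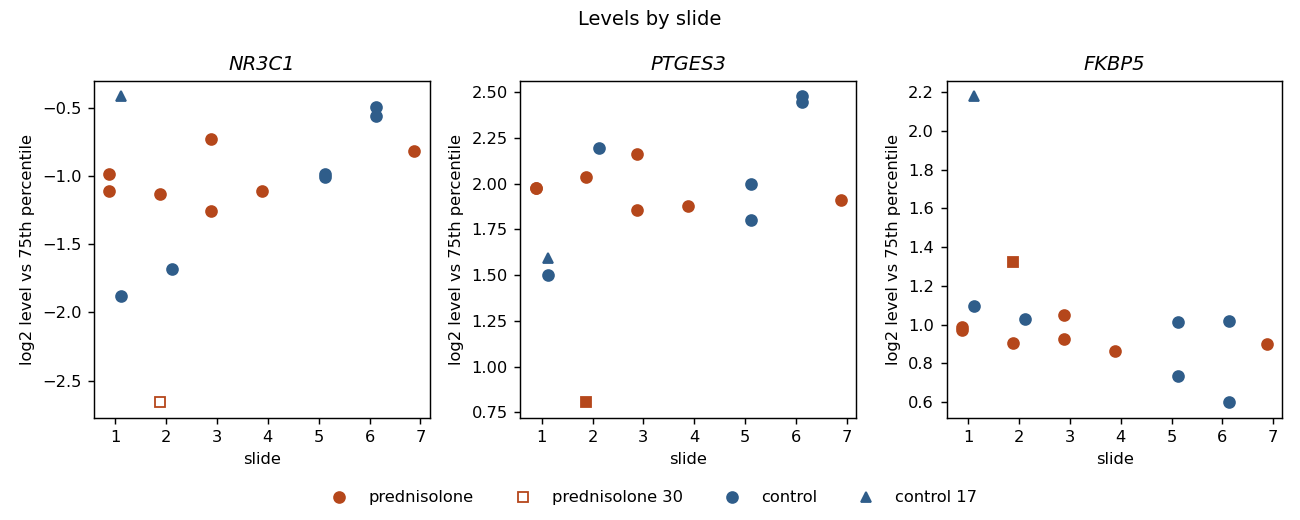
Log2 level (y axis) of NR3C1, PTGES3 and FKBP5 by slide (x axis), with prednisolone animals left of controls on each slide; the square is prednisolone 30, open where not well above background, and the triangle is control 17. Slides 3, 4 and 7 hold prednisolone arrays only, and slides 5 and 6 hold controls only.

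Control 17, the animal with the high FKBP5 level, also had the highest mean of the 5 peritubular markers, genes of the contractile cells around the tubules. That mean was 1.48 in control 17, against -0.43 to 0.46 in prednisolone animals without prednisolone 30 and -0.54 to 0.34 in the other controls. Its endothelial mean was 0.89 and its spermatid mean -0.79. Its macrophage mean was 0.55, against -0.21 to 0.12 in prednisolone animals without prednisolone 30 and -0.22 to 0.23 in the other controls. Over 14 animals FKBP5 and the peritubular mean had a Pearson r of 0.80 (permutation p = 0.0104, adjusted over 6 relations 0.0622) and a Spearman rho of 0.33 (permutation p = 0.246, adjusted 0.475). Without the 2 animals farthest from the median r was 0.40, and without control 17 it was 0.31, so the relation rests on that animal. Within the 7 treated animals r was 0.54 (rho = 0.32). It was 0.89 within the 7 controls (rho = 0.43) and 0.89 within scan day 1 (rho = 0.55), and both sets include control 17. Of the other 5 relations, the one between HSP90AA1 and the spermatid mean had the largest coefficients, with r = 0.48 (permutation p = 0.0868, adjusted 0.26) and rho = 0.56 (permutation p = 0.0414, adjusted 0.248). The marker means' part in the members' levels was not tested further.

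The genes whose levels ran most like a member's over the same 14 animals are given by Spearman rho, as a description. They were picked as the highest among all named tested genes, and high values can arise from that choice alone. NR3C1 was closest to MTHFD2L at 0.96, TPT1 at 0.93 and SRGN at 0.91, with Pearson r of 0.86, 0.73 and 0.84. HSD11B1 was closest to SAP30 at 0.86, MGLL at 0.86 and BZW2 at 0.85, with Pearson r of 0.58, 0.65 and 0.78. Its probe was near background and cleared it on 11 of these 14 arrays. FKBP5 was closest to SOCS1 at 0.85, SEMA4C at 0.84 and RNF187 at 0.81, with Pearson r of 0.80, 0.85 and 0.66. Without control 17 the Pearson r were 0.60, 0.84 and 0.58. HSP90AA1 was closest to ZNF263 at 0.90, ACRBP, an acrosomal protein of sperm, at 0.89 and CCDC88B at 0.89. The Pearson r of HSP90AA1 with them were 0.88, 0.63 and 0.71.

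The wider pathway showed no called change either. Of 67 genes in 7 lists, 58 were tested, 0 passed the adjusted threshold and 2, NCOR1 and CYP11B1, had an unadjusted p under 0.05, where 2.69% of all tested probes did. CYP11B1 passed the filter on dim probes only through the prednisolone group. Many of the single differences below turned sign without prednisolone 30, and that second value follows each one in brackets. Over all 12820 tested genes 49.9% were higher with prednisolone, or 52.7% without prednisolone 30. Among the 16 genes of the chaperone cycle, 6 were higher and 10 lower with prednisolone (median difference -0.10). Without prednisolone 30 these were 9 and 7 (median 0.02). The Hsp70 protein HSPA8 differed by -0.21 (0.02), the Hsp70-Hsp90 organiser STIP1 by 0.03 (0.13), the Hsp70 partner ST13 by -0.19 (0.09) and the kinase co-chaperone CDC37 by 0.27 (-0.08). Among 11 coregulators 3 were higher and 8 lower (median -0.12), or 6 and 5 without prednisolone 30 (median 0.01). The coactivators differed by 0.32 (0.38) for NCOA1, -0.17 (0.01) for NCOA2 and -0.10 (0.08) for NCOA3. The corepressor NCOR1 differed by -0.42 (95% interval -0.77 to -0.08, unadjusted p = 0.0185, adjusted p = 0.885, limma), and by -0.35 without prednisolone 30. Its interval spanned 0 with slide as a block (-0.92 to 0.20), scan day as a block (-0.92 to 0.04) and normexp (-0.71 to 0.004). The interval stayed below 0 with quantile normalization, in the authors' deposited table and without prednisolone 30 and control 17.

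Of the other steroid receptors, the estrogen receptors ESR1 and ESR2 differed by 0.03 (-0.01) and -0.04 (-0.35), while PGR was not tested. Among 7 nuclear import genes 5 were higher and 2 lower (median 0.03), or 4 and 3 without prednisolone 30 (median 0.02). Importin KPNB1 differed by 0.40 (0.09), KPNA2 by 0.10 (-0.07), IPO7 by 0.12 (-0.10) and IPO8 by -0.10 (-0.02). The 6 genes of NADPH supply, the cofactor side on which H6PD works, had a median difference of 0.09, or 0.11 without prednisolone 30. Of these PGD differed by -0.06 (0.10), PGLS by 0.01 (0.19) and the glucose-6-phosphate transporter SLC37A4 by 0.38 (-0.22). Of 7 tested genes that glucocorticoids commonly induce, 1 was higher and 6 lower (median -0.15), or 2 and 5 without prednisolone 30 (median -0.07). The clock gene PER1 differed by -0.03 (0.14), the phosphatase gene DUSP1 by -0.35 (-0.07) and the kinase gene SGK1 by -0.15 (-0.06). TSC22D3, which encodes GILZ, was well above background on 1 of 8 prednisolone and 0 of 7 control arrays and was not tested.

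In the list for corticosteroid synthesis, clearance and carriage 7 genes were higher and 1 lower (median 0.26). Without prednisolone 30 these were 6 and 2 (median 0.11). CYP11B1, the enzyme of the last step of cortisol synthesis in the adrenal cortex, had the largest difference of the list, 1.68 (95% interval 0.43 to 2.94, unadjusted p = 0.0118, adjusted p = 0.885, limma). The probe cleared background on 7 of 8 prednisolone arrays and 2 of 7 control arrays, so it entered the test only through the prednisolone group. Its processed signal was near background, at 9.83 to 26.9 in prednisolone animals without prednisolone 30 and 3.62 to 11.8 in controls. The difference was 1.15 without prednisolone 30 (unadjusted p = 0.00219, adjusted p = 0.964), 1.46 in the authors' deposited table (unadjusted p = 0.000902, adjusted p = 0.837) and 2.52 with slide as a block (unadjusted p = 0.00327, adjusted p = 0.914). It was 2.19 with scan day as a block (unadjusted p = 0.0311, adjusted p = 0.928, limma) and within scan day 1 (unadjusted p = 0.0490, adjusted p = 0.982). With normexp background correction it was 0.36 (unadjusted p = 0.632, limma). The slide and scan day values include prednisolone 30, at -2.61 though not well above background. Its slide held 1 control, at -7.17. Both groups were present only on slides 1 and 2 and on scan day 1. The probe was tested only because of its treated arrays, so these p-values describe it and cannot serve as a test. CYP21A2, CYP17A1 and HSD3B1, earlier steps of steroid synthesis, differed by 0.61 (0.23), 0.25 (0.19) and 0.01 (0.10), and the CYP21A2 probe was not well above background on prednisolone 30.

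**Figure D5:**
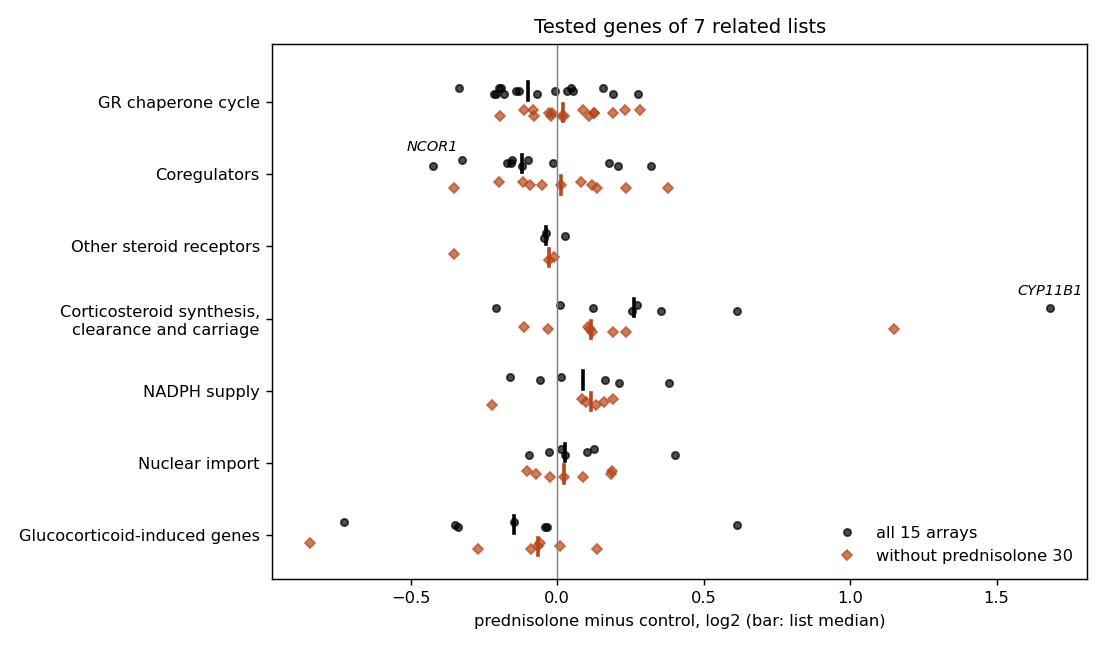
Difference in log2 level, prednisolone minus control (x axis), of the tested genes of 7 lists, over all 15 arrays (circles) and without prednisolone 30 (diamonds), with list medians as bars. CYP11B1 lies at 1.68, or 1.15 without prednisolone 30, and was above background on 2 of 7 control arrays; the list medians lie between -0.15 and 0.26 over all arrays.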

How the data were processed

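Testis RNA of 15 cattle was measured on 15 single-colour arrays. The deposited scanner files hold spot intensity, background-subtracted and detrended by Feature Extraction 9.5.1.1, per the file headers, and not normalized between arrays. A second deposited file, the authors' own table, holds intensity on a linear scale; its scaling method is not stated beyond R 2.11.1 in the submitters' processing notes. It was used as an alternative on the log2 scale. The medians of its columns were 434.8 to 491.7, and it is not centred per gene. For prednisolone 30 the file and the column are different measurements, and which belongs to the animal was not settled.

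Control spots and outlier-marked spots were left out, log2 processed signal was set relative to each array's 75th percentile and the spots of a probe were averaged (42990 spots, 21475 probes). Probes were named through bovine gene tables of assembly ARS-UCD2.0, and 16730 had a symbol. Coordinates are left out because the array design's genome build was not given in the sources used here. A probe was tested when well above background on at least 7 arrays of either group, and the brightest probe on average stood for a gene. The comparison used limma 3.58.1 under R 4.3.3 (lmFit, then eBayes, two-sided, Benjamini-Hochberg over all tested probes, threshold 0.05). The fit was also run on simulated data that did not keep the slide layout, and its outcome is not given here. Relations used two-sided permutation tests with 100000 resamples. The labels name separate animals, and the number of arrays limits the precision. Alternatives covered samples, scaling, background, filter, slide and scan day.

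Members and lists were chosen with earlier results of these data known. Named genes are all members, the first 4 measured genes of each list, any gene past the threshold and the 3 most like each of 4 members. The values of 2 list genes are not reported here.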

Additional observations from a re-analysis of the deposited data

Results flagged for a closer look

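Of 50 groups of values examined for 1 animal far from the rest of its group, 16 had one, where chance gives about 1 in 20, or 2.5. In 12 of these the animal was prednisolone 30 and in 2 it was control 17. For prednisolone 30 the levels were -2.66 for NR3C1, 0.0953 for the second NR3C2 probe, -1.64 for HSD11B2, 1.32 for FKBP5, 3.75 for HSP90AA1 and 0.80 for PTGES3. Within that array HSP90AA1 minus HSP90AB1 was 6.88 and FKBP5 minus FKBP4 was -3.24. Its marker means were 1.095 for endothelial cells, -0.74 for macrophages, 3.999 for the adrenal cortex and 1.52 for blood. The adrenal cortex mean rests on 2 measured genes, CYP11B1 and CYP21A2, and neither was well above background on this array. This is the dim array whose file and deposited column differ, and 7 of 9 members had a value in the deposited table within the range of the other treated animals.

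Control 17 stood at 2.18 for FKBP5 and at 0.89 for the endothelial marker mean. Control 21 had the lowest HSD11B1 level of its group, -8.77, on an array where that probe was not well above background. Prednisolone 32 had a Leydig marker mean of -1.22, against -0.05 to 0.78 in the other treated animals.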

How the results depend on the processing

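No tested member passed the threshold under any of 34 settings (265 values, 1 of them the second NR3C2 probe with no filter, lowest adjusted p 0.394), and 26 of these values changed direction. Probes past the adjusted threshold numbered 0 under every setting except array weights, which gave 1, an unnamed probe (adjusted p = 0.0361). Probes at an unadjusted p under 0.05, 468 over all arrays, numbered 907 without prednisolone 30 and control 17, 89 with normexp, 1019 in the authors' deposited table (1084 without control 17), 125 within slide 2, 189 within scan day 1 (820 without prednisolone 30, 1551 without control 17 as well) and 1186 with array weights. Leaving out 1 animal at a time gave 286 to 792, the highest without prednisolone 30. NR3C1 was 0.082 without both animals, 0.10 within slide 1, 0.013 both within scan day 1 and blocked by scan day (0.28 without prednisolone 30, 0.74 without both within that day), and 0.081 in the deposited table without control 17. NR3C2 was -0.40 within slide 2, -0.066 within scan day 1 without both and -0.031 in the deposited table without control 17. FKBP4 was -0.0016 with normexp and -0.26 within slide 2. FKBP5 was 0.028 without both, 0.084 within slide 2, 0.046 with array weights and 0.071 in the deposited table without control 17. HSP90AA1 was 0.024 in that table without control 17, and HSP90AB1 was 0.055 with normexp. PTGES3 was 0.43 within slide 1, 0.038 both within scan day 1 and blocked by scan day (0.24 without prednisolone 30, 0.15 without both within that day). HSD11B1, below the filter, was -1.31 within slide 1 and 1.96 within slide 2. All values within slide 1 rest on 2 arrays of each group. Those within slide 2 rest on 2 prednisolone arrays, the dim prednisolone 30 among them, and 1 control. Of the pairs, HSD11B1 minus HSD11B2 was -1.97 and FKBP5 minus FKBP4 was -0.95 within slide 1, HSP90AA1 minus HSP90AB1 was -0.69 within slide 2, and NR3C1 minus NR3C2 was 0.80 within scan day 1 without both. The relation of NR3C1 with the peritubular mean was -0.12 without the 2 farthest animals and -0.014 without control 17, against 0.32 over 14. Leaving out 1 animal at a time gave -0.050 to 0.20 for NR3C2, -0.19 to 0.076 for FKBP5 and -0.28 to 0.013 for HSP90AA1. List medians moved by more than the SD between animals in 17 of 264 values. The cause of these moves was not tested. No paired analysis was possible because the groups share no replicate numbers. Signal near background limits HSD11B1, CYP11B1 and the second NR3C2 probe.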
